A study of Homo sapiens with 6 samples.

Results

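IFI44, IFI44L, IFI6 and MX1 are genes that cells switch on in response to type I interferon, and they were followed here as 4 of the 1705 rows of a gene table from a pair of human lung adenocarcinoma lines. The members were taken by gene symbol, and each symbol matched 1 row. RNA was measured by sequencing in PC9, an epithelial line with an EGFR exon 19 deletion, and in PC9-GR, a gefitinib-resistant line derived from it that carries the same EGFR genotype. Gefitinib is an inhibitor of the EGFR kinase. The drug dose was raised in steps between 0.5 and 10 µM to select PC9-GR, and these cells were then maintained at 10 µM and left drug-free for 7 days ahead of RNA extraction. PC9 was the parental line without such selection. Each line gave 3 libraries from independent cultures, so n = 3 per group throughout. Whether PC9-GR is a single clone or a mixed population is not given in the sources used here.

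Type I interferons are secreted proteins that bind a shared cell surface receptor. The signal passes to the nucleus and acts through a short DNA element, the interferon-stimulated response element, near the genes it turns on. The products of these genes act mainly against viruses, and raised levels of such genes are also known in many tumours without infection. IFI44 and IFI44L are related cytoplasmic proteins encoded side by side on chromosome 1. IFI6 is a small hydrophobic protein of intracellular membranes that is known to limit apoptosis, and MX1 is a dynamin-like GTPase that restricts influenza and other viruses.

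Promoter stretches of the 4 genes that hold a spelling of the response element are shown first. Sequences are from RefSeq promoters on GRCh38.p14, which cover 250 bases before and 50 bases from the annotated start site onward, and all 4 genes matched an entry. They are written 5′ to 3′ on the strand of the gene, positions are counted from the start site as 0, and negative positions lie upstream. Both strands were searched for a long spelling of the element, GAAA then any pair of bases then GAAACT, and for a shorter one contained in it, which ends in GAAA without the last CT. Capitals mark the long spelling where there was a match, and the short one in IFI44L, which had no match to the long spelling.
IFI6 (chr1:27672253-27672382, minus strand, positions -190 to -61): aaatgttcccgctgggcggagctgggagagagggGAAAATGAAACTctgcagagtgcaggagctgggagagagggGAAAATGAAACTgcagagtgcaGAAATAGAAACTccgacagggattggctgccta
IFI44L (chr1:78620248-78620447, plus strand, positions -200 to -1): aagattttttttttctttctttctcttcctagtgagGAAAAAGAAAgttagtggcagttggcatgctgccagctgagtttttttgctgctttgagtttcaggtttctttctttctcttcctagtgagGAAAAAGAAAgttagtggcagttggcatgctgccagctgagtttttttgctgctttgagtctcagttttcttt
IFI44 (chr1:78649709-78649788, plus strand, positions -80 to -1): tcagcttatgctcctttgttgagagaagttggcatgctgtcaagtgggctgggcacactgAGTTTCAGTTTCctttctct
MX1 (chr21:41420560-41420589, plus strand, positions 2 to 31): agcagaaatGAAACCGAAACTgaattgtcc

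IFI6 held 3 matches to the long spelling, at -156, -115 and -93 (position of the first base). The first 2 matches lie in the copies of a 29-base repeat that recurs 41 bases further on. IFI44L held 2 matches to the short spelling, at -164 and -73, each in a copy of a longer repeat, an 85-base stretch found again without a mismatch 91 bases downstream. In IFI44 the single match reads on the opposite strand and spans -20 to -9 of the first window. A second IFI44 window, for a start site further downstream, holds the same site at -62 to -51. MX1 has 3 annotated windows. The first holds the long spelling at 11 to 22, just inside the transcribed part, the second held no match to either spelling, and the third held 1 match to the short spelling at -196.

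**Figure D1:**
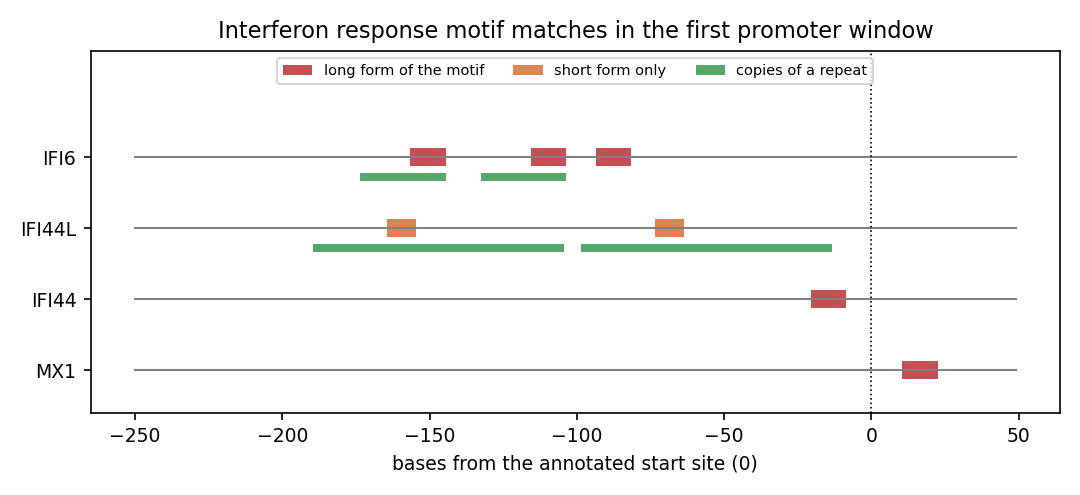
Positions of the motif matches in the first promoter window of each gene, in bases from the annotated start site at 0. Red boxes are matches to the long spelling, orange boxes are matches to the short spelling alone, and green bars are the 2 copies of a 29-base repeat in IFI6 and of an 85-base repeat in IFI44L, each copy with 1 match.

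These spellings are uncommon in promoters. The long one was found in 96 of 35116 windows of the same length (0.273%) and in 88 of 27305 genes (0.322%). The short one was found in 1195 genes (4.38%). Of the 1705 rows of the deposited table, 1116 could be matched to a promoter window. Among the 570 matched rows with a higher authors' ratio in PC9-GR, 3 held the long spelling, and they were IFI6, IFI44 and MX1. These 3 were chosen as interferon response genes, and no other matched row held it, so the count says nothing of the other rows. Among the 546 matched rows with a lower ratio, 0 held it. The short spelling was found in 33 of the 570 higher rows (5.79%), the 4 members among them, and in 27 of the 546 lower rows (4.95%), shares close to each other. A match is a description of the letters in these windows.

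IFI44 measured 0.7935, 0.5433 and 1.0526 FPKM (mapped fragments scaled to transcript length and library size) in PC9 replicates 1 to 3, and 4.511, 5.646 and 6.1355 FPKM in PC9-GR. The groups did not overlap, and the lowest resistant library was 4.29 times the highest parental one. IFI44 rose 6.82-fold, from 0.796 ± 0.255 to 5.43 ± 0.833 FPKM (mean ± SD). This was the largest ratio of means among the 4 genes. On the scale log2(FPKM + 1), on which all tests were run and which understates the change of low genes, the difference was 1.84 (95% interval 1.48 to 2.20; limma adjusted p = 3.44e-06).

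IFI44L, the neighbour of IFI44, had the lowest level of the 4 in both lines. Its PC9 libraries were at 0.3376, 0.4975 and 0.7879 FPKM, and its PC9-GR libraries at 2.6281, 2.706 and 3.1456 FPKM. No parental library reached 1 FPKM and the lowest resistant library was 3.34 times the highest parental one. The rise was 5.22-fold, from 0.541 ± 0.228 to 2.83 ± 0.279 FPKM. On the log2(FPKM + 1) scale the difference was 1.32 (95% interval 1.01 to 1.63; limma adjusted p = 1.02e-05), and it was 2.25 with a pseudocount of 0.1.

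The PC9 libraries held IFI6 at 0.9359, 0.7508 and 1.4188 FPKM, and the PC9-GR libraries at 4.4022, 4.4347 and 5.3422 FPKM. It rose 4.57-fold, from 1.04 ± 0.345 to 4.73 ± 0.534 FPKM, with no overlap between the groups. The difference on the log2(FPKM + 1) scale was 1.5 (95% interval 1.15 to 1.86; limma adjusted p = 1.05e-05).

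MX1 had the highest level of the 4 genes in both lines. Its PC9 libraries were listed at 1.5206, 2.805 and 1.5561 FPKM, with replicate 2 above the other two, and its PC9-GR libraries lay close together at 6.9418, 7.4352 and 7.4872 FPKM. MX1 rose 3.72-fold, from 1.96 ± 0.732 to 7.29 ± 0.301 FPKM, the smallest ratio of the 4, and the groups did not overlap. On the log2(FPKM + 1) scale its difference was 1.51 (95% interval 1.12 to 1.91; limma adjusted p = 2.07e-05), so on this scale IFI44L and not MX1 had the smallest difference. The MX1 value is uncertain for another reason: the row AP001610.5, annotated in GENCODE 29 as an antisense gene within MX1, has the same locus in the table. That row also rose, from 0.217 ± 0.0055 to 1.63 ± 0.383 FPKM (limma adjusted p = 1.35e-05). It was tested only because the PC9-GR libraries reached 1 FPKM, the level that a tested row needed in 3 libraries. The library kit keeps strand, but the strand setting used for counting is not given in the sources used here, so reads of the pair may have been exchanged.

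**Figure D2:**
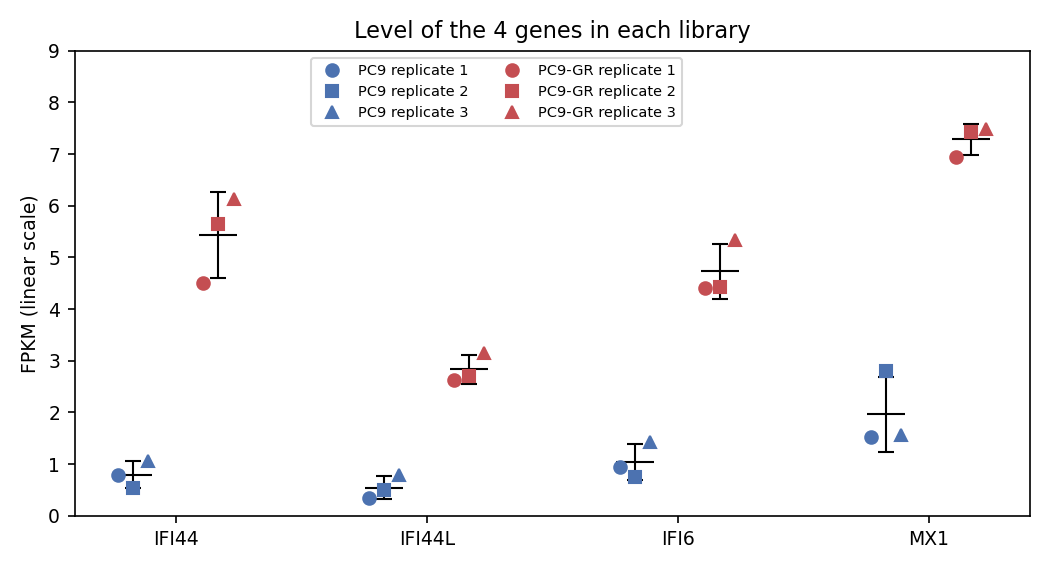
FPKM of IFI44, IFI44L, IFI6 and MX1 (y axis, linear) in each of the 3 PC9 libraries (blue) and 3 PC9-GR libraries (red), with the shape giving the replicate and black bars the mean ± SD. For each gene every red point lies above every blue point, with the lowest red value 2.47 (MX1) to 4.29 (IFI44) times the highest blue value.

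All 4 genes were called higher, that is, at a limma adjusted p under 0.05 over all rows tested. This count carries little weight by itself, since the table holds only genes that its authors had selected as changed between these same libraries. Of the 1207 rows tested, 48.4% were called higher and 51.3% lower. In 47.3% of tested rows all 3 PC9-GR libraries lay above all 3 PC9 libraries. The median difference was 1.51 for the 4 genes, 1.10 for the 584 rows called higher and -0.63 for all tested rows, a median that turned to 0.29 with no filter. Of the rows called higher, 86.1% had a smaller difference than IFI44, 76.2% a smaller one than MX1, 75.3% than IFI6 and 65.9% than IFI44L. To be tested, a row had to reach 1 FPKM in 3 or more libraries. IFI44L passed it through the PC9-GR libraries alone, IFI44 and IFI6 had 1 PC9 library at that level, and MX1 had 3. An exact two-sided permutation test over the 6 libraries gave p = 0.1 for each gene, the smallest value that 3 against 3 allows. The authors' deposited table gives log2 ratios of 2.82 for IFI44, 2.32 for IFI44L, 2.20 for IFI6 and 1.86 for MX1, each with a q-value of 0.000285.

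The order of the levels differed in part between the lines. In PC9 it was MX1, IFI6, IFI44 and IFI44L, and in PC9-GR it was MX1, IFI44, IFI6 and IFI44L. MX1 lay above the other genes in every PC9 and every PC9-GR library. In PC9 the library values of IFI6 and IFI44 overlapped, as did those of IFI44 and IFI44L. In PC9-GR the values of IFI44 and IFI6 overlapped, while IFI44L lay below both.

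Ratios of 2 genes inside the same library do not depend on how libraries were scaled. The log2 ratio of IFI44 to IFI6 was -0.24, -0.47 and -0.43 in the PC9 libraries and 0.04, 0.35 and 0.20 in the PC9-GR libraries. IFI44 was thus below IFI6 in each parental library and above it in each resistant one, a shift of 0.57 in the log2 ratio. On the plain ratio this was the only one of the 6 pairs whose groups did not overlap, and its exact two-sided permutation p was 0.1, or 0.6 adjusted over the 6 pairs. On log2(FPKM + 1) the shift was 0.34 (p = 0.1 by the same exact test), and the groups of IFI44 to IFI44L (0.52) and of IFI44L to IFI6 (-0.18) did not overlap either. For the other 5 pairs the shift of the plain ratio ran from 0.23 (IFI44L to IFI6) to 0.85 (IFI44 to MX1), with exact permutation p from 0.2 to 0.8. These shifts rested in part on single parental libraries. Without PC9 replicate 2 the shift fell to 0.32 for IFI44 to MX1, to 0.11 for IFI44 to IFI44L and to 0.21 for IFI44L to MX1, where all libraries gave 0.85, 0.34 and 0.51. Leaving out PC9 replicate 3 raised it to 1.22 for IFI44 to MX1 and to 0.96 for IFI44L to MX1. Leaving out PC9 replicate 1 raised it to 0.66 for IFI44 to IFI44L. On log2(FPKM + 1) the shift of IFI44 to MX1 was 0.33. With 3 against 3 libraries 0.1 is the smallest p possible, so none of the pairs could pass 0.05. The ratios were tighter in PC9-GR: the SD over libraries was 0.0259 to 0.171 there for the 6 pairs, and 0.123 to 0.952 in PC9, where levels were low. For IFI44L to IFI6 the 3 resistant libraries gave -0.74, -0.71 and -0.76, against -1.47, -0.59 and -0.85 in the parental ones.

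**Figure D3:**
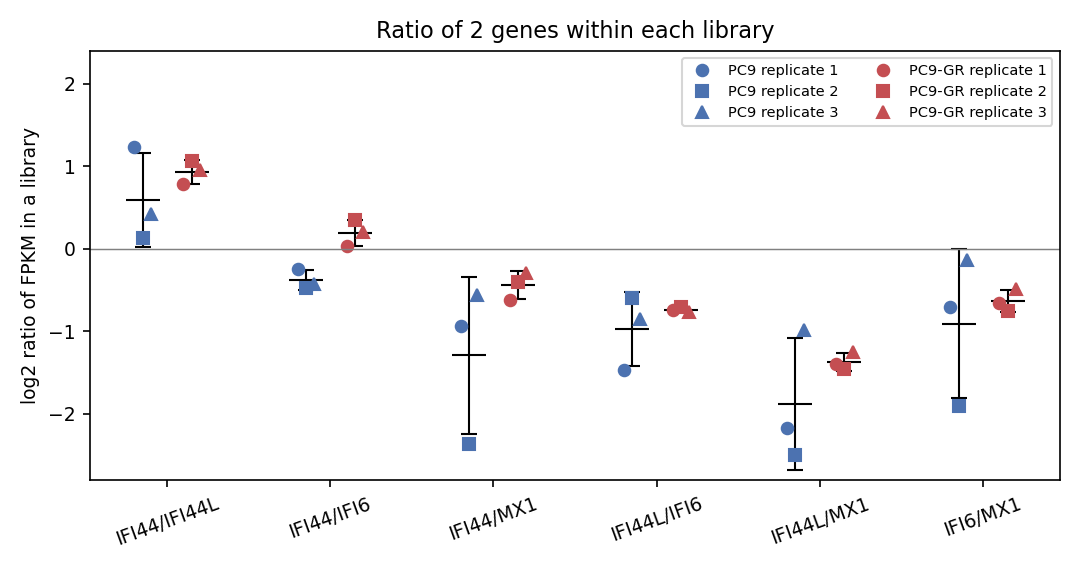
log2 ratio of the FPKM of 2 genes in the same library (y axis) for the 6 pairs of genes (x axis), with PC9 libraries in blue, PC9-GR libraries in red and black bars for the mean ± SD. On this plain ratio the groups stand apart only for IFI44 to IFI6, and red points of each pair lie within a narrower band than blue ones except for that pair, whose SD was 0.123 in PC9 and 0.157 in PC9-GR.

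Within PC9-GR the libraries fell in one order for each gene on FPKM as listed: replicate 3 was highest and replicate 1 lowest for all 4, an order found in 19.2% of the rows called higher. Library scale factors (median ratio to the geometric mean of each row) rise in the same order, 1.032, 1.137 and 1.172 for PC9-GR replicates 1 to 3. Whether the order of the genes holds after such scaling was not tested. In PC9, replicate 3 was highest for IFI44, IFI44L and IFI6 and replicate 2 for MX1. Summed over the 4 genes, the level was 3.59 to 4.82 FPKM in the PC9 libraries and 18.48 to 22.11 FPKM in the PC9-GR libraries. In bulk RNA a higher level in every cell and a higher level in some of the cells cannot be told apart.

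The genes whose profile over the 6 libraries was nearest to that of a member were not interferon response genes of the lists used here. Of the 1207 tested rows only 15 are list rows and 4 are members, so their absence from the nearest 3 carries little weight. Likeness was measured as the Euclidean distance between log2(FPKM + 1) profiles, each centred on its own mean. The 3 nearest rows to IFI44 were the chaperone CLGN (distance 0.343), the adhesion protein ADAM23 (0.369) and the myristoyltransferase NMT2 (0.379). Those to IFI44L were LEPRE1, a collagen hydroxylase (0.127), the collagen COL16A1 (0.154) and the integrin chain ITGB2 (0.165). Those to IFI6 were AC007347.1 (0.210), the ubiquitin ligase subunit FBXO32 (0.253) and CLGN (0.265), and those to MX1 were the adaptor LAT (0.196), the kinase MYLK (0.311) and the matrix protein MATN2 (0.351). The other members followed at later places, counted among all 1207 tested rows. IFI44L and IFI6 were the closest pair, at a distance of 0.318, with IFI44L in place 6 seen from IFI6 and IFI6 in place 18 seen from IFI44L. From IFI44 the nearest member was IFI6 (0.464, place 27), and from MX1 it was IFI44L (0.641, place 106). The distance takes in the group difference and the spread inside the groups together.

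The rest of the interferon pathway was described with 8 further lists holding 196 symbols, in which older and newer names of a gene were entered separately. Of these symbols 16 are in the table, with 19 rows, and symbols outside the table were not analysed here. The lists of interferon ligands (22 symbols) and interferon receptors (6) had 0 rows in the table. Of the 15 rows tested, 13 were called higher and 2 lower, against a background of 48.4% called higher and 51.3% lower among all 1207 rows. Only 8 of the 13 reached 1 FPKM in all PC9 libraries. The other 5 (APOL3, CD74, IFI16 and 2 HLA-B rows) passed the filter only with the help of PC9-GR libraries, where they are high, so the count is limited by that. Among the 13 are 4 HLA-B and HLA-C rows that can share reads; without them, a count added after seeing the data, 9 of 11 rows were called higher. The median difference of the 15 tested rows, the 2 lower calls included, was 1.06. It was 1.10 for the 584 rows called higher, a set without lower calls, and -0.63 for all tested rows of both directions (0.29 with no filter).

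Of 29 symbols for nucleic acid sensors and interferon regulatory factors, IFI16 and IRF1 are in the table, and both rose. IFI16, a sensor of intracellular DNA, stood at 0.114, 0.0705 and 0.1531 FPKM in the parental libraries and at 1.0579, 2.7674 and 2.401 FPKM in the resistant ones (limma adjusted p = 7.16e-05). It was nearly silent in the parental line, so the size of its ratio is uncertain, and it was tested only because the PC9-GR libraries passed the filter. IRF1, a transcription factor induced by interferons, rose 1.95-fold from 4.78 ± 1.23 to 9.33 ± 1.42 FPKM (limma adjusted p = 0.00103).

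Other genes induced by type I interferon moved in both directions. Of 79 symbols 8 are in the table and 6 were tested, with 4 called higher and 2 lower. UBE2L6, the conjugating enzyme that attaches the ubiquitin-like protein ISG15, rose 3.36-fold from 6.84 ± 0.806 to 23.0 ± 4.01 FPKM (limma adjusted p = 4.07e-06). The antiviral cytidine deaminases APOBEC3F and APOBEC3D rose 2.65-fold and 2.26-fold, and APOL3, of the apolipoprotein L family, rose 2.37-fold. SAMD9, a factor that restricts poxviruses, went the other way. Its values were 6.2774, 7.0166 and 7.6203 FPKM in the parental line against 2.4802, 2.2213 and 2.5976 FPKM in the resistant one, and its difference was -1.21 (limma adjusted p = 1.28e-05), or -0.57 with equal library totals (limma adjusted p = 0.00201). HERC6, a HECT-type ubiquitin ligase, fell from 1.95 ± 0.0513 to 0.896 ± 0.0894 FPKM (limma adjusted p = 0.00025), a call lost with equal library totals (limma adjusted p = 0.136). With median-ratio scaling and with quantile normalization both genes stayed lower, at -1.45 and -1.29 for SAMD9 and -0.81 and -0.95 for HERC6.

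The remaining 2 genes of that list were below the filter. APOBEC3H was listed at the lowest value of the table, 0.001 FPKM, in each PC9 library, and the PC9-GR libraries gave 0.9113, 0.5783 and 0.7236 FPKM. The death ligand TNFSF10 stood at 0.4562, 0.9566 and 0.4446 FPKM in parental libraries against 0.0304, 0.3629 and 0.3623 FPKM in resistant ones. With no filter the limma adjusted p was 7.05e-05 for APOBEC3H and 0.0519 for TNFSF10. Of 12 negative regulators only the phosphatase PTPN6 is in the table. It was too low to be tested, with 0.538 ± 0.0685 FPKM in the parental line against 0.211 ± 0.071 FPKM (limma adjusted p = 0.0035 with no filter).

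Of 28 symbols induced mainly by interferon gamma 3 are in the table, and all 3 were called higher. The GTPase GBP1 rose 2.88-fold from 1.28 ± 0.338 to 3.69 ± 0.164 FPKM, the adhesion molecule ICAM1 rose 3.36-fold to 26.2 ± 5.07 FPKM, and CD74, the invariant chain of class II antigen presentation, ranged over 0.0455 to 0.132 FPKM among parental libraries and 1.0586 to 1.3625 FPKM among resistant ones. CD74 was tested only because the PC9-GR libraries passed the filter, and with a filter on the mean of all 6 libraries it was left out. Of 13 class I antigen presentation symbols only HLA-B and HLA-C are in the table, and the 4 rows tested were called higher. The HLA values are uncertain, since most of these rows are copies on alternative scaffolds that can share reads. Promoter windows were found for 16 of the 19 rows of these lists: 0 held the long spelling of the response element, and 3 held the short one, in GBP1, which rose, SAMD9, which fell, and TNFSF10.

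**Figure D4:**
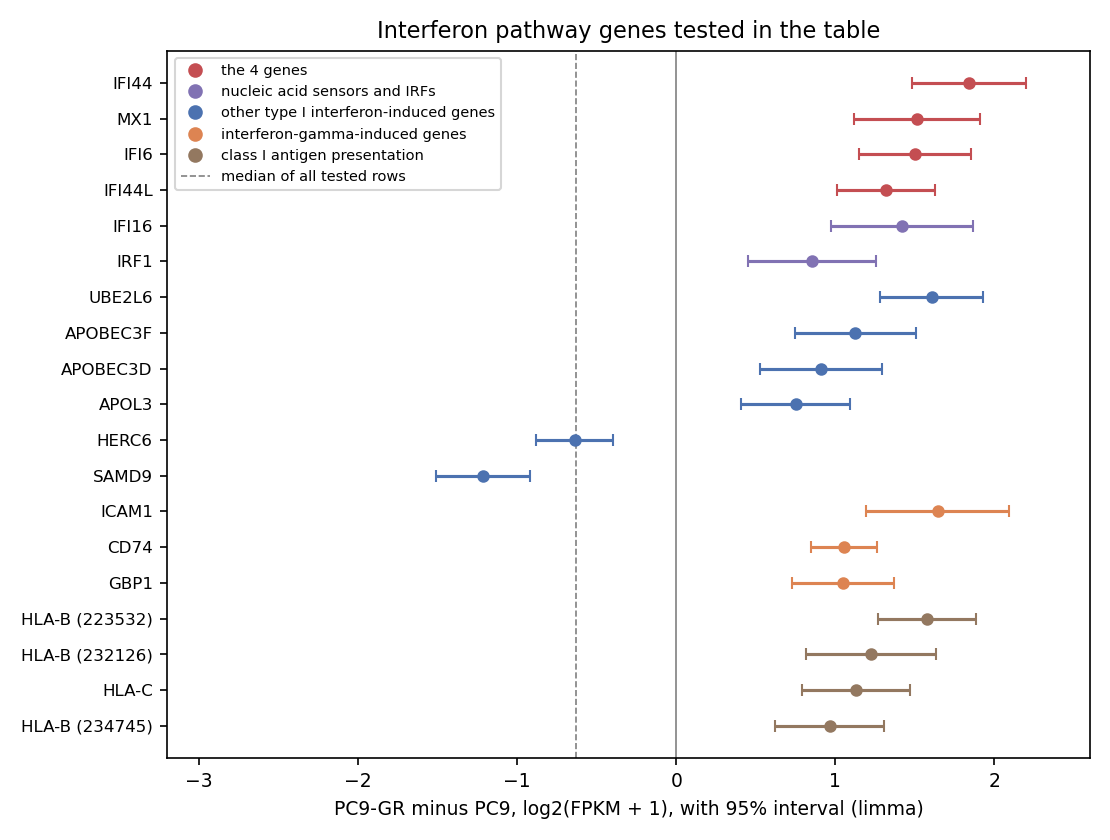
Difference PC9-GR minus PC9 on the log2(FPKM + 1) scale (x axis) with its 95% interval from limma, for the 4 genes (red) and the 15 tested rows of the pathway lists, coloured by list; digits after HLA-B are the end of the gene identifier. The 4 genes lie between 1.32 and 1.84, SAMD9 and HERC6 are the 2 rows below 0, and the dashed line is the median of all tested rows at -0.63.

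Markers of other cell types were read in the same libraries. Of 12 leukocyte markers 5 are in the table, and ITGAX, ITGAM, CORO1A and CD68 were called higher. Among all 1207 tested rows 48.4% were called higher and 51.3% lower, so such calls carry little weight. Lysozyme (LYZ) was too low to be tested, with 0.7596 to 1.6129 FPKM among parental libraries and at most 0.241 FPKM among resistant ones. ITGAX passed the filter through the PC9-GR libraries alone. ITGAM passed it with their help, as its PC9 libraries were at 0.1685, 1.2383 and 0.3034 FPKM. The summed level of the 5 leukocyte markers was 20.5 to 24.63 FPKM across PC9 libraries against 46.15 to 57.0 FPKM across PC9-GR libraries, most of it from CD68, a lysosomal protein also made outside the blood lineage. ITGAX went from 0.119 ± 0.0281 to 2.83 ± 0.187 FPKM. Of 5 markers of plasmacytoid dendritic cells, which secrete type I interferon, only TCF4 is in the table, and it was lower at 2.99 ± 0.841 FPKM against 7.69 ± 0.618 FPKM. Of 8 fibroblast and endothelial markers only PDGFRB is in the table, at 0.0661 to 0.1433 FPKM among parental libraries and 2.3817 to 3.7723 FPKM among resistant ones. The part of these markers in the difference of the 4 genes was not tested. Of 14 epithelial markers CLDN1 and OVOL1 are in the table, both called lower, with CLDN1 still at 22.6688 to 31.7708 FPKM in the PC9-GR libraries; the others were not analysed here, so the epithelial label was checked on these 2 only.

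The positions of the 4 genes in the table, whose genome build is not named, are chromosome 1 from 27992571 to 27998729 for IFI6 (ENSG00000126709), from 79085606 to 79111830 for IFI44L (ENSG00000137959) and from 79115480 to 79129763 for IFI44 (ENSG00000137965), and chromosome 21 from 42792230 to 42831141 for MX1 (ENSG00000157601). IFI44L and IFI44 are separated by 3650 bp. Of all 1705 rows, 871 (51.1%) have a higher authors' ratio. Within 5 Mb on either side this held for 5 of 5 other listed rows around IFI44 and around IFI44L, 10 of 10 around MX1 and 9 of 12 around IFI6. The IFI44 and IFI44L windows are not separate counts: each holds the other member and the same 4 further genes, AK5, NEXN, LRRIQ3 and ST6GALNAC3. The MX1 window includes AP001610.5, and 9 of 9 rows were higher without it. The nearest listed genes included NEXN, an actin-binding protein 676026 bp from IFI44L, which rose from 5.23 ± 0.737 to 12.8 ± 2.83 FPKM, and TTLL7, a tubulin polyglutamylase 5200947 bp from IFI44, which rose from 5.09 ± 0.81 to 15.7 ± 1.69 FPKM. The nearest listed genes to IFI6 were FAM46B at 653244 bp and THEMIS2 at 200325 bp, with ratios of 2.72 and 2.54. Those to MX1, beside the overlapping row, were DSCR8 at 3112951 bp and the integrin chain ITGB2 at 3474726 bp, with ratios of 3.27 and 6.66. Over the whole chromosome the share was 107 of 167 other rows for chromosome 1 and 15 of 16 for chromosome 21. The part of chromosomal position in the difference of the 4 genes was not tested.

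**Figure D5:**
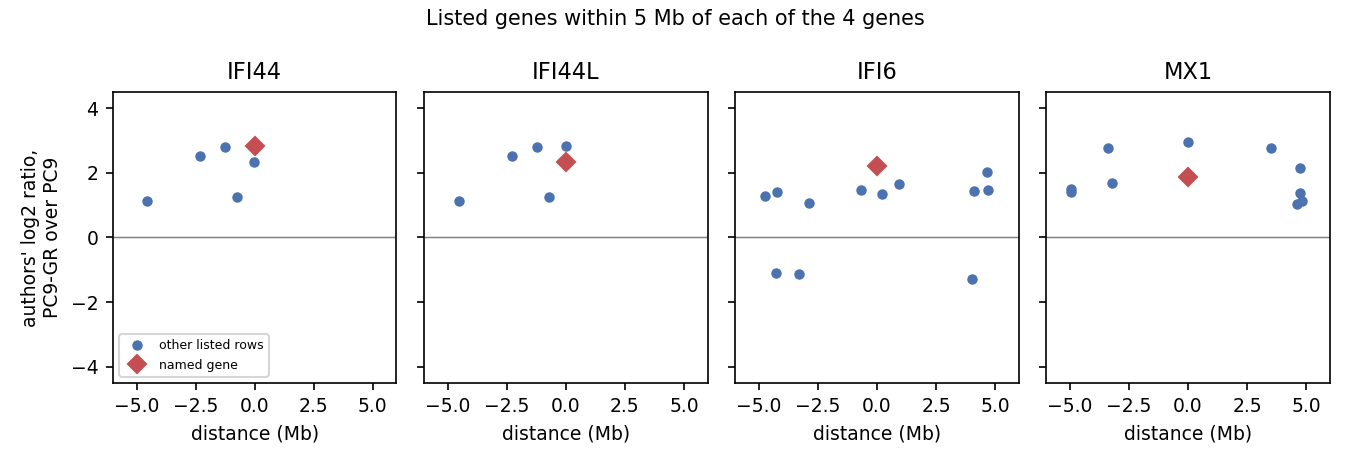
Authors' log2 ratio of PC9-GR over PC9 (y axis) for listed genes within 5 Mb of each of the 4 genes, against the distance between locus centres in Mb (x axis). The red diamond is the named gene and blue points are other listed rows, of which 10 of 10 lie above 0 around MX1 and 9 of 12 around IFI6.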

How the data were processed

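Total RNA (Trizol) was turned into libraries with Agilent's strand-specific SureSelect kit, per the labels' protocols. The submitters' processing notes name TopHat and Cufflinks. Not given in the sources used here: versions, roles, genome build, annotation, strand setting. Per the file headers, the deposited values are FPKM for each library and group. Further deposited columns are a ratio made by the authors, the log2 of that ratio, and a p-value and q-value of the authors. Every listed gene has an authors' log2 ratio of at least 1.0002 in size and an authors' p-value of at most 0.04965, so all tests here are conditioned on that selection. FPKM carry no counts, and low values showed no steps of single reads, so depth is unknown and counting error was not computed. Listed genes sum to 28346 to 30541 FPKM in PC9 libraries and 16705 to 17114 in PC9-GR.

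The difference PC9-GR minus PC9 was computed on log2(FPKM + 1) for rows that reached 1 FPKM in 3 or more libraries, using limma 3.58.1 in R 4.3.3 (moderated two-sided test with a trend in the variance, no covariate), and p-values were adjusted by Benjamini-Hochberg over 1207 rows. Exact permutation tests used scipy 1.17.1. The limma step was tested on simulated data. The genes named are the 4 members, listed genes of the pathway and marker lists, the 3 nearest profiles and the nearest listed neighbours. Members and lists were chosen with earlier results of these data known, and 1 of the 8 pathway lists is not reported here. Cultures are independent per the series' design text. Replicate numbers were shared by the groups, but the labels do not tie them, and the deviations of same-numbered libraries did not correlate above 0.1 in every pair.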

Additional observations from a re-analysis of the deposited data

How the results depend on the processing

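Each of the 4 genes kept its direction and its call under every alternative in which it was tested. These were a pseudocount of 0.1, no filter, 3 other scalings, no variance trend, a replicate block, each library left out and, chosen after seeing the data, a filter on the mean of all libraries. The differences ran from 1.65 to 2.65 for IFI44, 1.05 to 2.25 for IFI44L, 1.30 to 2.13 for IFI6 and 1.28 to 2.12 for MX1, with limma adjusted p of at most 0.000231. With each library left out they were 1.74 to 1.95, 1.22 to 1.43, 1.40 to 1.63 and 1.41 to 1.71 in the same order. With a filter at 5 FPKM in 3 libraries only MX1 was tested, so 1 member was called higher in place of 4, and the pathway lists had 6 higher and 1 lower call in place of 13 and 2. With equal library totals the median of all tested rows moved from -0.63 to -0.15, and the lists had 1 lower call. With no filter that median was 0.29 and the lists had 15 higher and 3 lower calls, with the 5 FPKM filter it was -1.03, and with the filter on the mean the lists had 12 higher calls. The exact p stayed at 0.1 for each gene. In the fit with the replicate block the limma adjusted p were 1.29e-05, 2.54e-05, 2.28e-05 and 4.63e-05 for IFI44, IFI44L, IFI6 and MX1, and no call of these genes or of the lists changed. Same-numbered libraries correlated at -0.0977, 0.0822 and 0.164 in their deviations from the group means, and not every library correlated best with its own number.

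The shift of the within-library log2 ratio reversed for 3 pairs on log2(FPKM + 1): to -0.18 for IFI44L to IFI6, -0.19 for IFI44L to MX1 and -0.01 for IFI6 to MX1. It also reversed without PC9 replicate 1 for IFI44L to IFI6 (-0.02, range over left-out libraries -0.02 to 0.42) and without PC9 replicate 2 for IFI6 to MX1 (-0.21, range -0.21 to 0.67). With 3 against 3 libraries 0.1 is the smallest exact permutation p, so none of these pairs could pass 0.05 in either form. IFI44L to IFI6 was at that smallest value on log2(FPKM + 1). The cause of the reversals was not tested. The short motif spelling gave 4 members with a match against 3 with the long one.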
